A study of Homo sapiens with 6 samples.

Results

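The numbered zinc finger genes of chromosome 19 were described in 2 clonal HEK293T lines. HEK293T derives from embryonic kidney cells and expresses a viral T antigen. Members were the rows of the deposited count table whose Ensembl identifier lies on chromosome 19 in GENCODE 29 and whose symbol is ZNF followed by a number and at most 1 letter. This gave 243 of the 20169 genes, with 84 on the short arm (19p) and 159 on the long arm (19q). Both lines hold a landing pad, a docking site for reporter genes, driven by the PGK promoter in one and by the CAG promoter in the other. PGK is the promoter of a glycolytic gene, and CAG is a strong composite of viral and actin promoter parts. Both were grown in the same medium with serum and antibiotics, and polyadenylated RNA was sequenced from 3 libraries of each. Each line stands for 1 clone as far as the labels tell, so promoter and clone cannot be told apart. Separate cultures are not named in the labels, so each p-value reflects only the spread among these libraries, which may be technical.

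C2H2 zinc finger proteins read DNA through tandem fingers, each a short fold held by a zinc ion. Most genes of the numbered ZNF family on chromosome 19 arose by tandem duplication and stand in clusters of paralogs. Many encode a KRAB domain, which recruits the corepressor TRIM28 and with it the histone methyltransferase SETDB1, heterochromatin protein HP1 and DNA methylation. KRAB zinc finger proteins are best known for silencing transposable elements.

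Total counts ran from 21896246 to 23442542 per library, and a count was found for 14952 to 15360 genes. Of the markers listed for HEK293T, VIM, CDH2, KRT18 and LIN28B were above 50 CPM (counts scaled to a common library size) in both lines. Others were low: PAX2 was at 1.55 CPM in PGK and 1.27 in CAG, EYA1 at 2.57 and 5.23, KRT8 at 1.09 and 5.35 and SALL4 at 0.0738 and 1.08. EYA1 and KRT8 were called at least 2-fold higher in CAG. SALL4 passed the low-count filter only through CAG, so its values are given without a test. The leukocyte gene CD3E, the hepatocyte genes ALB and AFP and the pluripotency gene NANOG were at 0 counts in all 6 libraries. PTPRC, CDH5 and POU5F1 had mean levels of at most 0.0292 CPM, and MYOD1, DES and CD14 of at most 0.446 CPM. NEFM, a neurofilament gene found in HEK293 cells, was at 18.8 CPM in PGK and 0.0853 CPM in CAG, so several markers of the line differed between the clones. No 2 libraries of a line were the same within sampling noise, with a chi-square per degree of freedom of at least 3.31 within a line and at least 49.1 between lines.

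The zinc finger genes of the short arm were lower in the CAG line and those of the long arm were higher. Summed over all 84 members of 19p, with no filter, the level was 799, 877 and 877 CPM in the PGK libraries and 604, 647 and 618 CPM in the CAG libraries. Every CAG library lay below every PGK library, and the CAG to PGK ratio of the means was 0.732. Summed over all 159 members of 19q, the level was 1119, 1153 and 1153 CPM in PGK against 1818, 1886 and 1833 CPM in CAG. Here every CAG library lay above every PGK library, with a ratio of 1.62.

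**Figure D1:**
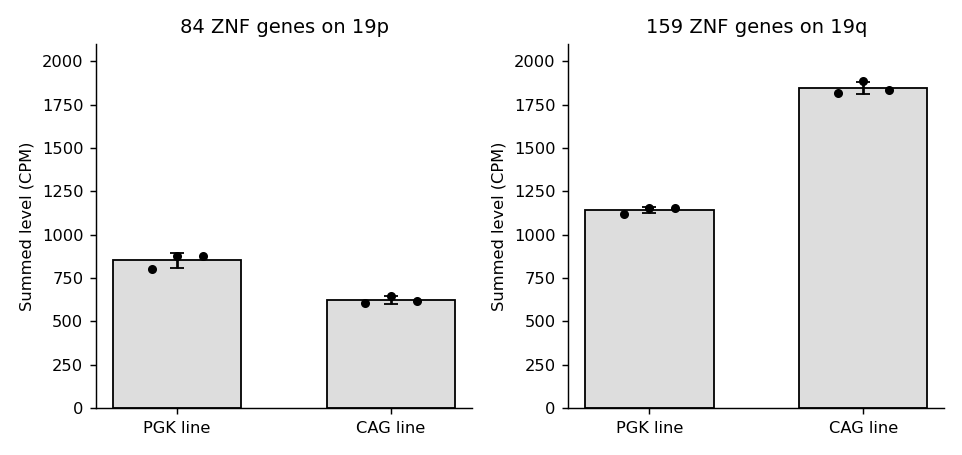
Summed level in CPM of the zinc finger genes of 19p (84 genes, left) and 19q (159 genes, right) in the PGK and CAG lines. Bars are means of 3 libraries, error bars are 1 SD and points are libraries; the CAG libraries lie at 604 to 647 CPM on 19p, below PGK, and at 1818 to 1886 CPM on 19q, above PGK.

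Gene by gene, 196 of the 243 members had enough counts to be tested, 55 on 19p and 141 on 19q. Among all 13103 genes tested, 62.0% were called at an adjusted p under 0.05, 31.6% as higher and 30.4% as lower in CAG. On 19p 39 of 55 members (70.9%) were lower and 3 higher, with a median log2 fold change (CAG over PGK) of -0.45. On 19q 130 of 141 members (92.2%) were higher and 3 lower, with a median of 0.84. The 3 lower calls on 19q fell to 1 without PGK replicate 1. The median over all tested genes was 0.00, and of the 222 tested numbered ZNF genes on other chromosomes 88 were higher and 56 lower (median 0.08). At least 2-fold differences were called for 8 lower and 2 higher members on 19p, and for 49 higher and 0 lower members on 19q. Over all tested genes, a rise of 2-fold or more was called for 5.73% and a fall of that size for 2.88%.

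The other genes of each arm moved the same way as its zinc finger genes. Of 378 other tested genes on 19p 303 were lower and 18 higher, with a median of -0.42, close to the -0.45 of the members. Of 358 on 19q 262 were higher and 15 lower, with a median of 0.44, against 0.84 for the members. The sign changed at the centromere, taken as the widest gap between gene starts. The 20 tested genes before it, all of them members, had 16 lower and 1 higher. The 20 tested genes after it, 2 of them members, had 19 higher and 0 lower. Whether the members' differences are separate from those of the arms was not tested. In bulk RNA, fewer cells that express a gene and less RNA per cell cannot be told apart.

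**Figure D2:**
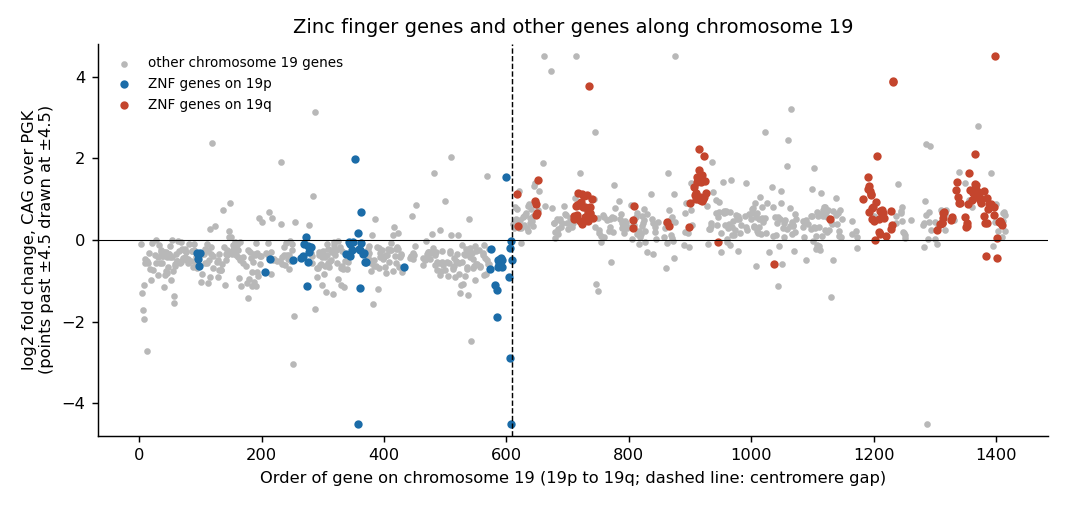
Log2 fold change of CAG over PGK (y axis) for each tested gene in its order along chromosome 19 (x axis), with zinc finger genes in blue (19p) and red (19q), other genes in grey and the centromere gap as a dashed line. Values past ±4.5 are drawn at ±4.5. The medians of the zinc finger genes are -0.45 on 19p and 0.84 on 19q, and the grey genes change sign at the same place.

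A few members entered the test through only 1 line, which forces a difference on them. On 19q 8 members reached the count filter in all CAG libraries but not in all PGK libraries. On 19p ZNF625 and ZNF726 reached it only in PGK and ZNF433 only in CAG. Among members that reached it in both lines, 122 of 133 on 19q were higher and 3 lower (median 0.80), and 37 of 52 on 19p were lower and 2 higher (median -0.45). Differences of at least 2-fold among them were 41 higher and 0 lower on 19q, and 6 lower and 1 higher on 19p. The members fell into 10 clusters, 4 on 19p and 6 on 19q, when a cluster was a run of at least 5 members with at most 10 other genes of the table between neighbours. The 14 members outside any cluster had 8 higher and 4 lower calls among 13 tested.

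On 19p the cluster next to the centromere, from ZNF101 to ZNF254, fell furthest. Its 36 genes summed to 268, 308 and 305 CPM in PGK and 181, 202 and 189 CPM in CAG, a ratio of 0.65. Of 20 tested members 16 were lower and 1 higher, with a median of -0.59. The cluster from ZNF653 to ZNF791 had a median of -0.25, with 10 lower and 2 higher of 18. From ZNF414 to ZNF846 the median was -0.35, with 6 of 10 lower. The small cluster from ZNF554 to ZNF77 had 4 of 4 tested members lower, with a median of -0.39. Without PGK replicate 3 only 2 of these 4 were called: ZNF554 and ZNF77 were then at -0.23 and -0.31 and missed the threshold. ZNF554 also missed it with DESeq2 (-0.32) and without CAG replicate 3 (-0.22), and ZNF77 without CAG replicate 2 (-0.21) or PGK replicate 2 (-0.24).

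ZNF91, a repressor of SVA retrotransposons with 31 fingers, was among the genes of that cluster that fell most. Its level was 8.94, 12.1 and 10.5 CPM in the PGK libraries and 1.33, 1.82 and 1.09 CPM in the CAG libraries. The lines did not overlap, and the log2 fold change was -2.89 (SE 0.17), or 7.42-fold lower. ZNF726 was at 3.77, 5.08 and 4.21 CPM in PGK and at 0.0443, 0.0847 and 0.252 CPM in CAG. This left it nearly silent in CAG, with 9 counts over the 3 libraries against 290 in PGK. ZNF66 went from 2.32 ± 0.687 CPM to 0.627 ± 0.0908 (SD, n = 3), and ZNF85 from 4.87 ± 0.808 to 2.07 ± 0.245. ZNF726 overlaps the pseudogene ZNF92P3 on its strand. It passed the low-count filter only through PGK, so its values are given without a test. The adjusted p (edgeR quasi-likelihood, Benjamini-Hochberg) was 7.76e-11 for ZNF91, 2.44e-06 for ZNF85 and 6.04e-06 for ZNF66.

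ZNF492, in the same cluster, went the other way. It was at 0.932, 0.944 and 0.964 CPM in PGK and at 2.44, 3.47 and 2.39 CPM in CAG, a log2 fold change of 1.54 (SE 0.22). It shares 45.1% of its 31-base windows with other genes and lies opposite AC024563.1, so its reads may be mixed with theirs. The genes that fell share windows too, at 19.9% of ZNF91, 23.1% of ZNF85, 27.1% of ZNF726 and a larger part of ZNF66. ZNF726 also lies opposite AC011503.1. Reads of these genes may therefore be mixed as well. ZNF675, an inhibitor of TRAF6 signalling, did not pass, at 10.2 ± 2.27 CPM in PGK and 8.94 ± 0.458 in CAG (SD, n = 3), but was called lower without PGK replicate 1, at -0.36. ZNF93, which represses LINE-1 elements, had 9 counts in PGK and 0 in CAG and was not tested. ZNF43 had 0 counts in PGK and 1 count in each CAG library, which is below the floor of 3 counts per library (0.126 to 0.140 CPM) and shows no difference. The genes at the ends of the cluster, ZNF101 and ZNF254, fell by 0.72 (SE 0.08) and 0.49 (SE 0.08) on the log2 scale.

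The promoters of this cluster carry a shared stretch around an ETS motif, and 5 of them are shown because their genes were among those that differed most. ETS factors bind the letters CCGGAAG, 1 of 6 motifs searched, on both strands, in RefSeq's windows from 250 bases before to 50 after each gene start (GRCh38.p14). In each line below the capitals mark this motif, here on the opposite strand, and the sequence runs 5′ to 3′ on the gene's strand.
ZNF91: ggacagggcggCTTCCGGgatgtggctggg
ZNF85: ggatagggcggCTTCCGGgatgtggcgggg
ZNF726: gaacagggcggCTTCCGGgatttggcgggg
ZNF66: gaacaggacggCTTCCGGatttggcggggt
ZNF492: ggaaagggcggCTTCCGGgatgtggcgggg
These lie at chr19:23395477-23395506 (minus strand), chr19:20923222-20923251, chr19:23914851-23914880, chr19:20776270-20776299 and chr19:22634295-22634324 (plus strand). The windows of ZNF85 and ZNF492 differ at 1 of 30 bases, and those of ZNF91 and ZNF492 at 2, although ZNF91 and ZNF85 fell and ZNF492 rose. The window of ZNF66 differs from the others at 7 to 10 positions when laid side by side without gaps.

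The longer letters GGCTTCCGG, which contain the motif, were chosen as the stretch that promoters of this cluster share. Their share in the cluster is therefore no test. They were present in 20 of the 28 promoters of this cluster (71.4%), against 1.27% of 27305 RefSeq promoters of the same length. None of the other 3 clusters on 19p had them. Of the 20 genes with this stretch 15 were tested, and 12 were lower and 1 higher, with a median of -0.65. Over the whole cluster 16 of 20 tested members were lower and 1 higher, with a median of -0.59. Whether the stretch bears on the fall was not tested. Over all 211 members with a RefSeq promoter, the motif CCGGAAG was found in 46.0%, against 10.7% of all promoters. The letters GGGCGG, bound by SP factors, were found in 67.8% of members against 44.6%, and CCAAT in 53.6% against 35.7%. The CRE letters TGACGTCA were in 3.32% against 1.98%, the NRF1 core GCATGC in 9% against 7.48% and TATAAA in 1.9% against 12%. On 19p, 20 tested members with the ETS motif had a median of -0.62 with 15 lower, and 33 without it had a median of -0.34 with 23 lower. The 15 tested genes of this cluster with the longer stretch are among those 20, so the split on 19p is largely one by cluster. On 19q, 64 tested members with the ETS motif had a median of 0.86 and 61 without it had a median of 0.84, and 58 were higher in each set. A match describes letters in a window and says nothing of a factor bound there.

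In the ZNF653 to ZNF791 cluster ZNF625 was expressed in PGK and nearly off in CAG, while 8 others had too few counts in both lines to be tested. ZNF625 was at 2.0, 1.21 and 0.964 CPM in PGK, while CAG held 1 count in all, in CAG replicate 2. The PGK to CAG ratio was 96.8, with a 95% exact binomial counting interval of 16.9 to 3860. ZNF625 was named partly for its few counts in CAG and passed the low-count filter only through PGK. The interval therefore covers counting error and is not a test. ZNF625 overlaps the readthrough gene ZNF625-ZNF20, and 80.5% of its 31-base windows occur in transcripts of other genes, so how its reads were assigned is uncertain. Its neighbour ZNF20 did not pass, at 0.927 ± 0.281 and 1.04 ± 0.165 CPM (SD, n = 3), and its log2 fold change of 0.16 turned to -0.06 without PGK replicate 1. ZNF563 fell by 1.17 (SE 0.25) on the log2 scale. ZNF433 went from 0.466 ± 0.0556 to 1.85 ± 0.39 CPM (SD, n = 3), although ZNF433-AS1 overlaps it on the other strand and reads of the pair may be mixed. ZNF442 rose by 0.68 (SE 0.27). This call was lost without CAG replicate 1 (0.48), CAG replicate 3 (0.75), PGK replicate 1 (0.65), PGK replicate 2 (0.68) or PGK replicate 3 (0.71), and with no low-count filter or with DESeq2. ZNF653 and ZNF791 at its ends fell by 0.35 and 0.54.

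**Figure D3:**
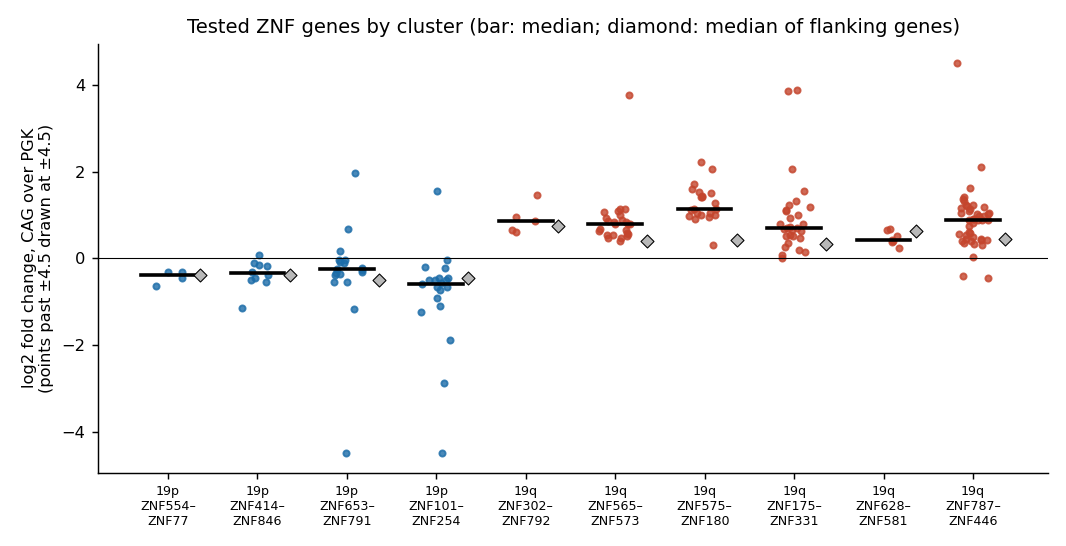
Log2 fold change of CAG over PGK (y axis) of each tested zinc finger gene by cluster (x axis, named by first and last gene), in blue on 19p and red on 19q. Black bars are cluster medians and grey diamonds are medians of the tested other genes on either side on the same arm, at most 10 a side. Points past ±4.5 are drawn at ±4.5, and the ZNF575 to ZNF180 cluster has the highest median, 1.15 against 0.42 for its flanks.

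On 19q the cluster from ZNF575 to ZNF180 rose furthest. Its 22 genes summed to 120, 127 and 124 CPM in PGK and 260, 257 and 243 CPM in CAG, a ratio of 2.05. All 21 tested members were higher, 15 of them at least 2-fold, with a median of 1.15. The 10 tested other genes on either side of it had a median of 0.42, with 13 of 20 higher. These flanks were chosen after the cluster values were seen. ZNF284 rose from 0.605, 0.989 and 0.876 CPM to 4.12, 3.9 and 3.65 CPM, a log2 fold change of 2.23 (SE 0.20). In ZNF224, a partner of the WT1 tumour suppressor, the mean level went from 8.28 ± 0.757 CPM up to 16.3 ± 0.264 CPM (SD, n = 3), a rise of 0.98 (SE 0.09) on the log2 scale. ZNF180 at the edge rose by 1.15 (SE 0.11). Windows of 31 bases shared with other genes made up 48.4% of ZNF284 and 49.7% of ZNF224, against 0.582% of ZNF180, so the first pair is uncertain in level. ZNF575 was not tested, with 3 counts in PGK and 8 in CAG.

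The remaining 19q clusters rose by smaller medians. The ZNF565 to ZNF573 cluster had 25 of 25 tested members higher, with a median of 0.80, against 0.41 for its flanks. Its first gene ZNF565 lost its call without PGK replicate 1 (0.45) or CAG replicate 3 (0.53). The ZNF302 to ZNF792 cluster had 5 of 5 higher at a median of 0.87, against 0.75. From ZNF787 to ZNF446, the largest cluster with 51 genes, 39 of 44 were higher and 2 lower, with a median of 0.89 against 0.44. From ZNF175 to ZNF331, 25 of 29 were higher at a median of 0.70, against 0.32. The ZNF628 to ZNF581 cluster had 7 of 7 higher but the lowest median on 19q, 0.42, against 0.62 for its flanks. ZNF628 there, at 0.24, lost its call without CAG replicate 3 (0.17), without PGK replicate 2 (0.19) and with DESeq2. Other genes inside the 19q clusters were mostly higher. In the ZNF565 to ZNF573 cluster 5 tested ones had a median of 1.02, above its members, and 11 in the ZNF787 to ZNF446 cluster had 0.88. In the ZNF575 to ZNF180 cluster 6 had 0.55, below the 1.15 of its members. The 2 in the ZNF628 to ZNF581 cluster had 0.52, and 1 in the ZNF175 to ZNF331 cluster was at 0.57. On 19p 3 inside the ZNF414 to ZNF846 cluster had 0.36, with 1 higher and 1 lower. The 2 inside the ZNF653 to ZNF791 cluster had -0.63. On 19p the flanks had medians of -0.39, -0.38, -0.50 and -0.46 for the clusters in order from ZNF554, and the median of the members of the ZNF653 to ZNF791 cluster, -0.25, was nearer to 0 than that of its flanks. None of these contrasts was tested.

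A few genes of 19q were low or nearly silent in PGK and much higher in CAG. ZNF544 was at 0, 0.135 and 0.0438 CPM in PGK and at 10.4, 9.91 and 9.57 CPM in CAG. With 4 counts in PGK against 696, the CAG to PGK ratio was 165 (95% exact binomial counting interval 64.3 to 609). Its few counts in PGK were part of why it was named, so this interval covers counting error and is not a test. ZNF331, which is imprinted, was at 0.885, 1.30 and 1.18 CPM in PGK and at 17.0, 18.3 and 14.9 CPM in CAG, 14.8-fold higher. The lines were far apart in both genes. ZNF813, next to ZNF331, went from 0.197 ± 0.111 to 2.92 ± 0.636 CPM (SD, n = 3) and ZNF793, near the end of the ZNF565 to ZNF573 cluster, from 0.183 ± 0.141 to 2.53 ± 0.639 CPM. ZNF772 rose from 1.79 ± 0.109 to 7.76 ± 0.709 CPM. ZNF544, ZNF813 and ZNF793 passed the low-count filter only through CAG, so their values are given without a test. The adjusted p (edgeR quasi-likelihood, Benjamini-Hochberg) was 7.4e-14 for ZNF331 and 2.63e-10 for ZNF772. ZNF544 and ZNF793 overlap genes on the other strand, and ZNF544, ZNF813 and ZNF772 overlap genes on their own strand, so their reads may be mixed. Shared 31-base windows made up 25.6% of ZNF813, 22.2% of ZNF544, 12.3% of ZNF793, 11.4% of ZNF772 and 4.15% of ZNF331.

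Of these, the windows of ZNF544 and ZNF813 hold the ETS motif beside the gene start and are shown in the same way, with the motif on the gene's own strand.
ZNF544: tccgccggccaCCGGAAGcaccgccattgg
ZNF813: ttcgcgaaaacCCGGAAGcggatcgcgtgg
These lie at chr19:58228904-58228933 and chr19:53467738-53467767 on the plus strand of GRCh38.p14. The 300-base promoter windows hold 31 CG pairs for ZNF544, 25 for ZNF813, 17 for ZNF331 and 16 each for ZNF793 and ZNF772, against a median of 23 for members on 19q, 15.5 for members on 19p and 14 for all RefSeq promoters. ZNF331, ZNF793 and ZNF772 had no match to the motif in this window.

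**Figure D4:**
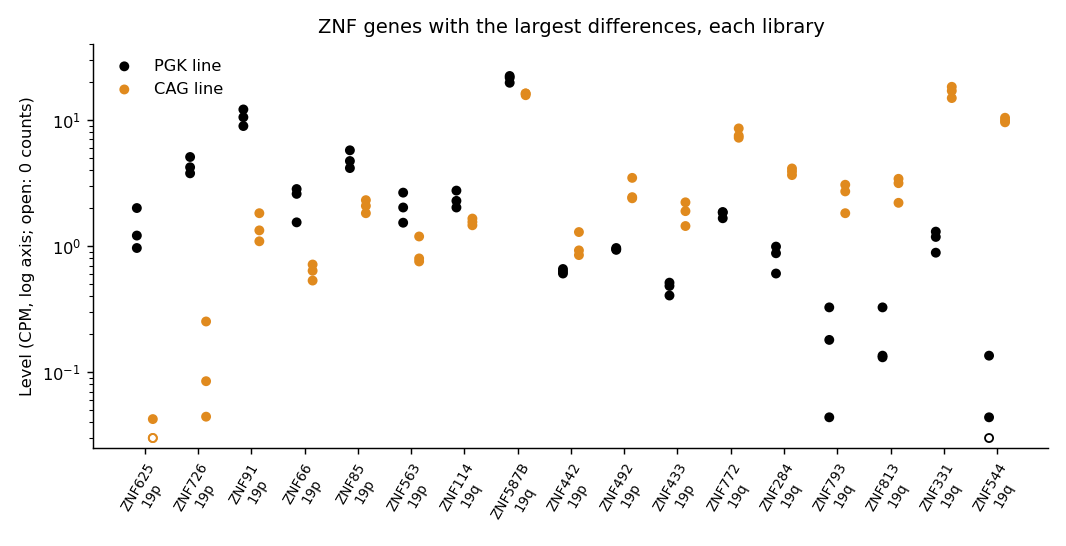
Level in CPM (y axis, log scale) of each library for the 17 zinc finger genes with the largest called differences in each direction on each arm (lines not overlapping), ordered by fold change, with PGK libraries in black and CAG libraries in orange. Open circles are libraries at 0 counts, drawn at the bottom. Genes run from ZNF625 and ZNF726 on 19p, near 0 in CAG, to ZNF331 and ZNF544 on 19q, which are at 14.9 to 18.3 and 9.57 to 10.4 CPM in CAG.

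Few members went against their arm. On 19q ZNF114, opposite ZNF114-AS1, was at 2.75, 2.02 and 2.28 CPM in PGK and 1.46, 1.65 and 1.55 CPM in CAG. It fell by 0.59 (SE 0.19) on the log2 scale, and this call was lost without PGK replicate 1 (-0.47). ZNF587B was at 19.7, 22.3 and 21.6 CPM in PGK and 15.7, 16.2 and 16.2 CPM in CAG, a fall with a log2 fold change of -0.40 (SE 0.07). It overlaps ZNF586 on the same strand and shares 27.3% of its windows with other genes. Its paralog ZNF587 rose from 29.4 ± 1.65 to 39.5 ± 3.75 CPM, and ZNF417, which with ZNF587 represses HERV-K elements, rose from 7.48 ± 0.333 to 12.5 ± 1.53 CPM. Shared windows make up 47.6% of ZNF587 and 54.4% of ZNF417, so their levels are uncertain. ZNF837 was the third lower gene on 19q and was named after its value was seen, at -0.45 (SE 0.18). Its libraries overlapped between the lines. This call was lost with DESeq2 (-0.46), limma-voom (-0.44) and library-size scaling (-0.42), and without CAG replicate 1 (-0.43), CAG replicate 3 (-0.38), PGK replicate 1 (-0.29) or PGK replicate 3 (-0.48).

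Members with known roles on 19q mostly followed the arm. ZNF274, which binds the coding ends of zinc finger genes and brings SETDB1 there, rose from 11.1, 12.6 and 12 CPM to 19.6, 22.7 and 20.2 CPM, a log2 fold change of 0.81 (SE 0.08). ZNF649 rose by 1.24 (SE 0.09), ZNF382, a gene silenced by methylation in tumours, by 1.14 (SE 0.15), and ZNF175, a repressor of HIV transcription, by 1.00 (SE 0.11). ZNF568, whose mouse counterpart represses a placental Igf2 transcript, rose by 0.80 (SE 0.12), the BRCA1 partner ZNF350 by 0.67 (SE 0.14) and ZNF765 by 0.36 (SE 0.11). ZNF649 overlaps ZNF577 on its own strand and ZNF649-AS1 on the other, and ZNF382 overlaps ZNF529 on the other strand. ZNF765 shares 22.1% of its 31-base windows with other genes, so reads of all 3 may be mixed. ZNF160, a repressor of TLR4, did not pass, at 4.76 ± 0.351 CPM in PGK and 5.05 ± 0.484 in CAG. ZNF154 and ZNF132, both often methylated in tumours, held 1 count and 0 counts over all 6 libraries.

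The most abundant members were ranked by level per exon length. On 19q ZNF146, which consists of fingers alone, was at 26.9 CPM per kb in PGK and 38.5 in CAG. Its libraries were at 104, 116 and 115 CPM against 154, 169 and 156 CPM, and all CAG libraries were higher. ZNF428 went from 19 to 35.7 CPM per kb and ZNF581 from 11 to 17.5. On 19p ZNF358 went from 25.7 to 18.5 CPM per kb, ZNF317 from 15.3 to 11.2 and ZNF414 from 11.5 to 8.13. The KRAB pattern was found in 1 of these 6 genes, ZNF317. ZNF146 overlaps ZNF565 and ZNF428 overlaps SRRM5 on the other strand, and ZNF581 overlaps CCDC106 and ZNF358 overlaps AC008878.1 on their own strand, so their levels are uncertain.

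The members encode proteins that could be read from 241 of the 243 genes, with a median of 12 fingers in a range of 0 to 36. A KRAB pattern was found in 203. On 19q, 114 tested members with the pattern had a median of 0.91 with 106 higher, and 27 without it had a median of 0.48 with 24 higher. On 19p the medians were -0.44 for 49 members with the pattern and -0.48 for 6 without it. Shared sequence is common in the family, with 180 members sharing at least 5% of their 31-base windows with other genes. Among those under 5%, 45 of 48 were higher on 19q (median 0.80) and 4 of 7 lower on 19p (median -0.32). Among members with no exon overlap, 53 of 57 were higher on 19q and 19 of 27 lower on 19p.

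The 47 members that were not tested had at most 0.421 CPM on average in either line, and 12 of them had 0 counts in all libraries, 5 on 19p and 7 on 19q. A count of 0 in a library allows up to 3 counts, or 0.126 to 0.140 CPM at these depths. Of the untested members 11 on 19p had the higher mean in CAG and 13 in PGK, and on 19q these numbers were 9 and 2.

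The genes of proteins that KRAB zinc fingers recruit had smaller differences, with no test of this contrast. Of 38 matched genes of corepressor and heterochromatin function 19 were higher and 5 lower, with a median of 0.12, and none changed 2-fold. These are 50% and 13.2% of the list, against 31.6% and 30.4% of all tested genes. The list therefore had a larger share of higher calls and a smaller share of lower calls than all genes. TRIM28, itself on 19q, went from 490 ± 23.1 CPM up to 770 ± 24.9 CPM (SD, n = 3), a rise of 0.65 (SE 0.05) on the log2 scale, while SETDB1 on chromosome 1 fell by 0.29 (SE 0.05). The chromatin remodeller ATRX rose by 0.86 (SE 0.07) and the histone methyltransferase SUV39H2 by 0.78 (SE 0.06). The remodeller HELLS fell by 0.42 (SE 0.05), and DNMT1, the maintenance DNA methyltransferase on 19p, fell by 0.37 (SE 0.05). DNMT1 overlaps S1PR2. Adjusted p values (edgeR quasi-likelihood, Benjamini-Hochberg) spanned 1.53e-09 for TRIM28 to 5.31e-05 for SETDB1.

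A chosen list of 25 other C2H2 genes, named ZFP, KLF or otherwise, had 24 matched on chromosome 19 and was split by arm in the same way. On 19q 11 of 12 tested were higher and 0 lower, with a median of 0.66. On 19p 0 of 4 were higher and 3 lower, with a median of -0.24. Over all tested genes 31.6% were higher and 30.4% lower. Of all other genes of the arms, these included, 73.2% were higher on 19q and 80.2% lower on 19p. Whether the list differs from its arms was not tested. No PGK library held a count of ZFP82, which reached a mean of 2.75 CPM in the CAG libraries. Against a floor of 3 counts per library this is at least 19.6-fold higher.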

How the data were processed

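RNA-seq read counts per Ensembl gene for 6 libraries (3 PGK, 3 CAG) were used as deposited by the authors, not normalized and not pooled, with 0 columns left unused. The submitters' processing notes name cutadapt 4.6, Bowtie2 2.5.1, HISAT2 2.2.1, featureCounts 2.0.3 and hg19. For annotation release, strand and multi-mapping settings, the sources used here give nothing. GENCODE 29 (GRCh38) supplied names for 19346 of 20169 genes, order, arms, exon overlap and coding sequences. Its coordinates are not given.

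All genes were fitted with edgeR 4.0.16 (R 4.3.3): filterByExpr, TMM, robust quasi-likelihood test, two-sided, Benjamini-Hochberg adjustment over 13103 genes, threshold 0.05. Levels are CPM on TMM-scaled totals, and SE is the size of the log2 fold change divided by the square root of F. Intervals and floors cover counting error only. The fit was tested on simulated data. KRAB and finger patterns were searched in translated coding sequences, and the KRAB pattern was widened after its misses were seen. Named genes followed a rule of fold, level, known role and place in a cluster. The members, lists and rules were chosen with earlier results of these data known. Flanking genes, genes beside the centromere, promoter motifs, and the subsets by filter, shared windows and exon overlap were chosen after seeing the data and carry no test. Alternatives were other filters, scalings and tools (DESeq2 1.42.0, limma 3.58.1), a fold threshold, a replicate block and leaving out each library.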

Additional observations from a re-analysis of the deposited data

How the results depend on the processing

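The call counts by arm stayed within 1.5 times under other filters, RLE or library-size scaling, DESeq2, limma-voom and the replicate block, and no called member in the set of named genes changed direction. ZNF20, not called, went from 0.16 to -0.06 without PGK replicate 1. Of the other genes named, ZNF837 lost its call in 8 of 14 alternatives, and TRIM28, SETDB1, HELLS and DNMT1 lost theirs only against 1.5-fold. With the replicate block 130 members on 19q were higher and 40 on 19p lower. The numbers were not taken to pair the libraries, since same-numbered libraries correlated at 0.108, 0.103 and 0.0131 in their deviations, although each correlated best with its own number. Against a threshold of 1.5-fold, 67 members were higher and 10 lower, with 65 higher and 0 lower on 19q and 10 lower on 19p. Lower calls were then 0, 1, 2 and 6 in the 4 clusters of 19p in order, and higher calls 3, 8, 10, 0 and 23 in the 19q clusters from ZNF302, ZNF565, ZNF175, ZNF628 and ZNF787. Of the corepressor genes 4 were then higher and 0 lower. Without pseudogenes and members with an exon overlap, 54 were higher and 20 lower, from fewer genes. Leaving out 1 library at a time gave 126 to 129 higher and 1 to 3 lower members on 19q, 32 to 42 lower on 19p, and 2 to 4 lower in the ZNF554 to ZNF77 cluster. Members near 0 counts are limited by depth.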
